A study of Mus musculus with 2 samples.

Results

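The following 10 genes of leukocyte adhesion were compared between LatY136F and wildtype mice, in CD4+ alpha beta T cells of the spleen: the integrin subunit genes Itgb2l, Itga6, Itga2b, Itgam, Itgal, Itga4, Itgb1 and Itgb7, the integrin ligand gene Vcam1 and the selectin ligand gene Selplg. They were chosen by name, as every probe whose single platform gene symbol is 1 of these, and all 10 had a probe, 14 probes in all, among 4331 genes measured. LatY136F mice carry the Y136F substitution in Lat, the membrane adaptor that links the T cell receptor to its downstream signals, and wildtype mice were the only other group. Both groups of cells were enriched with magnetic beads against CD4 and then sorted. Total RNA of both was put on each of 2 two-colour arrays with the dyes reversed: LatY136F RNA was in channel 2 of array 1 and in channel 1 of array 2, with wildtype RNA in the other channel. The sources used here do not give the number or age of the mice, or say whether the arrays used separate extracts. The pair was therefore treated as 1 biological comparison and no p-value was computed.

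Integrins are receptors of 1 alpha and 1 beta chain that hold leukocytes to vessel walls, matrix and other cells. Signals from the T cell receptor and from chemokine receptors switch them from a bent, weakly binding form to an extended, strongly binding form. Itga4 pairs with Itgb1 to bind VCAM-1 and fibronectin, and with Itgb7 to bind the gut addressin MAdCAM-1. Itgal and Itgam pair with Itgb2 to bind ICAMs and, for Itgam, complement fragments. Itga6 pairs with Itgb1 or Itgb4 to bind laminin, and Itga2b pairs with Itgb3 as the fibrinogen receptor of platelets. Selplg encodes PSGL-1, which lets rolling leukocytes hold on to selectins.

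Each value below is a log2 ratio of LatY136F over wildtype, after centring each array on its median. A mean is over both arrays, and ± gives 0.5 times the difference between them, which may be technical error only. The deposited table holds log ratios whose base and direction are not stated. They were read as log10, because the highest value of array 1 is exactly 2, a 100-fold limit on that scale, so the reading is likely and not certain. The direction, too, is likely and not settled. Values were read as channel 2 over channel 1. The sign of array 2 was reversed because the labels give its channels as the reverse of those of array 1. The deposited columns had a Pearson r of -0.21 over probes (Spearman rho -0.06, close to 0), which did not decide the sign. Under this reading Gata3, the T helper 2 transcription factor, stood at 2.93 ± 0.02, and LatY136F T cells are known for T helper 2 polarisation; that is the basis for calling the direction likely. The other reading would make every "higher" a "lower". To be called higher or lower, a gene had to pass 2-fold in the same direction on each array.

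Upstream sequences are shown first for the 3 called genes that had one in the RefSeq promoter table (GRCm38.p6), together with Itga4, the alpha chain partner of Itgb1, which was not called. The table held 6 of the 10 genes; Vcam1, Selplg, Itgal and Itga6 were not among them. Each run is the 250 bases before the start site, 5′ to 3′ on the gene's strand. Capitals mark matches, on either strand, to GATAA (a form of the GATA site), TGTGGT (the Runx core), GAGGAA (a PU.1 and Ets core) and GGGCGG (the Sp and Klf box). No match overlapped another. Itgb2l lies at chr16:96443615-96443864 on the minus strand, and its gene record reaches 50 bases further upstream than the start used. Itgb1 lies at chr8:128685404-128685653 on the plus strand, Itga2b at chr11:102469884-102470133 on the minus strand, and Itga4 at chr2:79255176-79255425 on the plus strand.
Itgb2l: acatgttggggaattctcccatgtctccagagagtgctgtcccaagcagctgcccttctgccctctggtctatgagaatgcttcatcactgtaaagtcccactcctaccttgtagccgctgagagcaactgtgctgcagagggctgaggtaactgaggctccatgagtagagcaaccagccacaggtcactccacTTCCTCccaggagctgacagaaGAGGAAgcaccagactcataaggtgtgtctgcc
Itgb1: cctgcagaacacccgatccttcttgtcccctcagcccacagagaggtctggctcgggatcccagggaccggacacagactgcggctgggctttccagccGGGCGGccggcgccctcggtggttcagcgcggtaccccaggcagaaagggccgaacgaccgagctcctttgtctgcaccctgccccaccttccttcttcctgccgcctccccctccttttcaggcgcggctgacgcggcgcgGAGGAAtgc
Itga2b: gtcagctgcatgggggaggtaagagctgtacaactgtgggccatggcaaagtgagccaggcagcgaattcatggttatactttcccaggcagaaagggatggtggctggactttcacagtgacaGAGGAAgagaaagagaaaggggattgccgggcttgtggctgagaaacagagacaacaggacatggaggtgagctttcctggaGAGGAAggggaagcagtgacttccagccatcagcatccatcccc
Itga4: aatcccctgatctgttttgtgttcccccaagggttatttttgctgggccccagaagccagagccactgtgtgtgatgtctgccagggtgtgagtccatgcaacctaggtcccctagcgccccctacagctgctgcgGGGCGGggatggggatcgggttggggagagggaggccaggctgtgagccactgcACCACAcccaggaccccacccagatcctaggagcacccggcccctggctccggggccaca
GAGGAA was found 2 times before Itgb2l, 2 times before Itga2b and 1 time before Itgb1, and it was not found before Itga4. It was also found 2 times before Itgam, which was not called, and not before Itgb7, whose gene record reaches 1470 bases further upstream than the start used. Of all 32851 promoters of the same length, 23.3% hold it. In Itgb2l the matches start 55 and 33 bases before the start site, in Itga2b 126 and 44 bases and in Itgb1 9 bases. GGGCGG stood before Itgb1, Itga4 and Itgam (32.7% of all promoters), TGTGGT before Itga4 (14.0%), and GATAA before none of the 6 (22.6%). Other forms of the GATA site were not searched. The Itgb1 sequence held the most CpG dinucleotides of the 6, 21 with 68.0% G and C, against a median of 52.4% and 6 CpG over all promoters. Itgb2l had 1 CpG and Itga2b 2. These matches describe letters, and binding was not measured.

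In LatY136F cells, 4 of the 10 genes were called higher and 0 lower. They were Itgb2l, Itgb1, Vcam1 and Itga2b. Of all 4331 genes, 4.20% were called higher and 0.970% lower. The genes were picked with earlier results of these arrays known, so this count was not tested against that background. Of the other 6, Itgal, Itgb7, Selplg and Itgam were above 0 on both arrays, Itga6 was below 0 on both, and Itga4 had opposite signs. The median of the 10 means was 0.71, beside 0.00 over all genes, and they ran from -1.21 to 4.13.

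**Figure D1:**
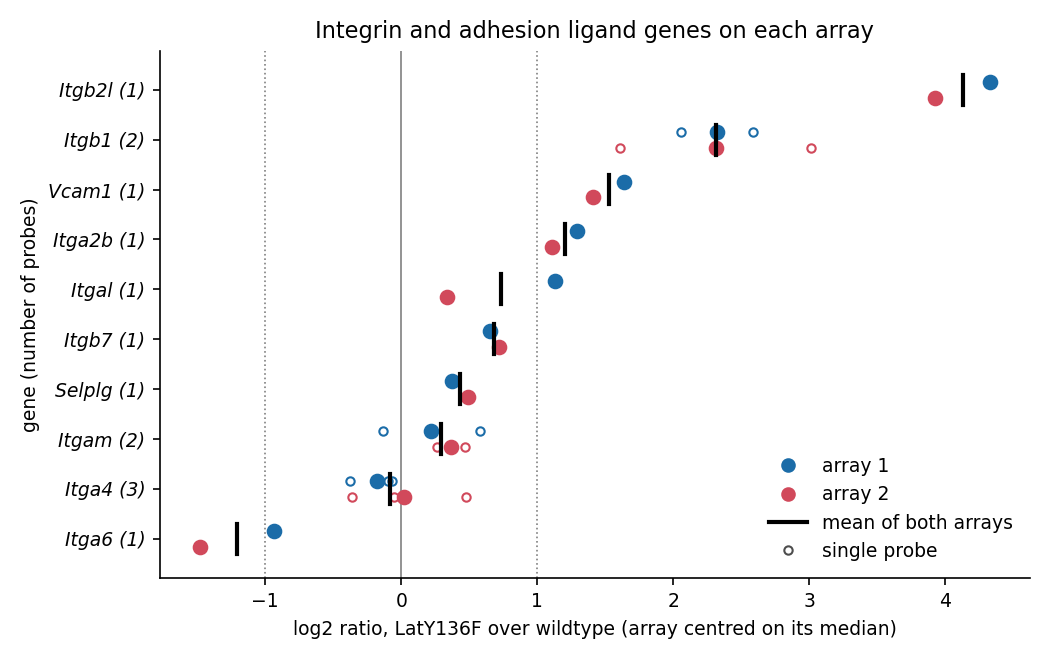
Log2 ratio of LatY136F over wildtype for each gene on array 1 (blue) and array 2 (red), with the mean of both as a black bar; open circles are single probes where a gene has several, and dotted lines mark 2-fold. Itgb2l, Itgb1, Vcam1 and Itga2b lie beyond the right dotted line on both arrays, and Itga6 crosses the left one on array 2 only.

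Among the beta chains, Itgb2l stood furthest out. This gene encodes pactolus, a relative of the beta chain Itgb2 known from bone marrow and neutrophils. It gave 4.33 on array 1 and 3.92 on array 2, a mean of 4.13 ± 0.20 or 17.5-fold, and ranked 7 among the 4331 genes counted from the highest. The arrays put it at 20.1-fold and 15.2-fold. Its relative Itgb2, the shared beta chain of the leukocyte integrins, gave 0.21 and -0.17, a mean of 0.02 ± 0.19. The related genes therefore differed on these arrays, although probes of similar genes can share target RNA, and probe sequences were not used here. Itgb2l has a single probe.

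Itgb1, the beta chain shared by many matrix receptors and a VCAM-1 receptor, was 4.98-fold higher. It gave 2.32 on array 1 and 2.31 on array 2, a mean of 2.32 ± 0.004, and ranked 40 from the highest. That closeness is of averages over its 2 probes and overstates the precision. Probe 633646 gave 2.58 and 3.02 (6.96-fold over both arrays), and probe 639828 gave 2.06 and 1.61 (3.57-fold). All 4 readings were beyond 2-fold, and the probes differed more from each other than the arrays did.

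Itgb7, the beta chain of gut-homing and epithelium-binding receptors, was not called. It gave 0.65 and 0.72, a mean of 0.68 ± 0.04 or 1.61-fold, above 0 on both arrays. Both beta partners of Itga4 thus had positive ratios, while Itga4 itself did not move one way. Its values were -0.18 on array 1 and 0.02 on array 2, a mean of -0.08 ± 0.10. The 3 Itga4 probes had means of 0.05, -0.06 and -0.23. The first of these averages opposite signs, -0.38 on array 1 and 0.47 on array 2, while the other probes were below 0 on both arrays.

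The alpha partners of Itgb1 as a group did not share its ratio of 2.32. Of 12 such genes listed, 8 were measured, and their median was -0.22. Of the 8, 0 were called in either direction. As only 4.20% of all genes were called higher and 0.970% lower, that count says little. Itga6, a laminin receptor chain found on naive T cells, was the lowest of the 10 genes. It gave -0.93 on array 1 and -1.48 on array 2, a mean of -1.21 ± 0.28, which is 2.31-fold lower. Array 1 fell short of the 2-fold threshold, so Itga6 was not called; it ranked 42 from the lowest of 4331. Itgav, the alpha chain of vitronectin receptors, had nearly the same pair of values, -0.90 and -1.54. Itga2, a collagen receptor chain, lay on the other side and differed between the arrays, at 2.01 and 0.24. The rest were nearer to 0: Itga3 had a mean of 0.15 ± 0.57, Itga5 of -0.01 ± 0.04, Itga7 of -0.37 ± 0.40 and Itga8 of -0.36 ± 0.51.

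Itga2b, the platelet fibrinogen receptor chain, was called higher. It gave 1.29 and 1.11, a mean of 1.20 ± 0.09 or 2.30-fold. Its partner chain Itgb3 lay below 0 on both arrays, at -0.21 and -0.57. Markers of platelets and megakaryocytes were mixed. Of 14 listed, 3 were measured: Pf4, a platelet chemokine, was 2.93-fold higher, Clec1b, a platelet lectin receptor, gave 1.05 and 0.91, and Itgb3 was the other. How far platelet RNA took part in the Itga2b ratio was not tested.

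The leukocyte integrins that use Itgb2 had smaller ratios. Itgal, the alpha chain of the T cell receptor for ICAMs, gave 1.13 on array 1 and 0.33 on array 2, a mean of 0.73 ± 0.40. Only array 1 passed 2-fold, and 79.7% of genes had as small a difference between arrays or a smaller one. Itgam, the alpha chain of the complement receptor of myeloid cells, gave 0.22 and 0.37, a mean of 0.29 ± 0.07. Its 2 probes had means of 0.17 and 0.42, and the first had opposite signs on the arrays. Itgax, the next protein-coding gene after Itgam on the same chromosome and a myeloid and dendritic cell integrin, gave 0.79 and 0.70. None of these reached 2-fold on both arrays.

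**Figure D2:**
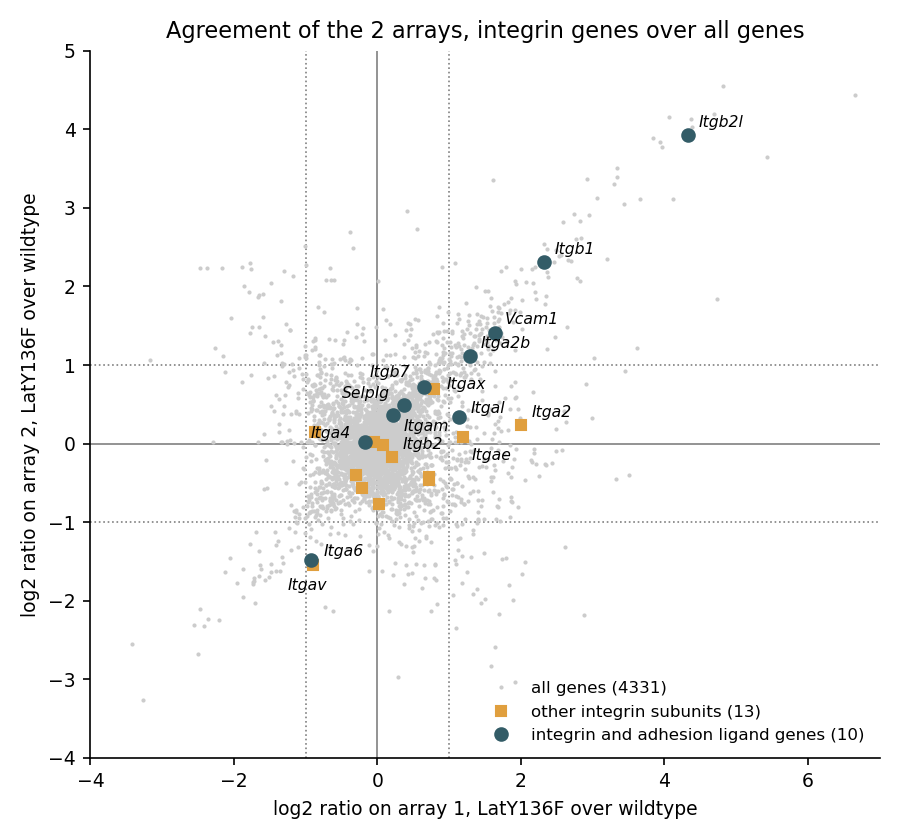
Log2 ratio on array 1 (horizontal) against array 2 (vertical) for all 4331 genes (grey), the 10 integrin and adhesion ligand genes (dark circles) and the 13 other integrin subunits measured (orange squares); dotted lines mark 2-fold. Itgb2l, Itgb1, Vcam1 and Itga2b lie in the upper right corner, Itga6 and Itgav almost coincide at the lower left, and Itga2, Itgae and Itgal are beyond 2-fold on array 1 only.

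Over the whole integrin family, 21 of 27 listed subunits were measured. Of these, 3 were called higher (Itgb2l, Itgb1 and Itga2b) and 0 lower, and the median was 0.13. Of the 13 subunits outside the 10 genes, 0 were called, and their median was 0.02. The 10 genes were picked with earlier results of these arrays known, so this split may follow from the choice. As 4.20% of all genes were called higher and 0.970% lower, 0 of 13 says little. The signs matched on both arrays for 13 of the 21, or 61.9%, beside 55.8% of all genes. Itgae, which pairs with Itgb7 to hold T cells in epithelium, gave 1.20 and 0.08. Itgb4, the partner of Itga6 in epithelia, had opposite signs, at 0.72 and -0.46. Itgb5 and Itgb6, chains of αv-type receptors, had means of -0.35 ± 0.05 and 0.04 ± 0.05.

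Of the ligands, Vcam1 was called. It encodes VCAM-1, the immunoglobulin superfamily ligand of Itga4 integrins known from activated endothelium and from macrophages of spleen and bone marrow. It gave 1.64 and 1.41, a mean of 1.52 ± 0.11 or 2.88-fold, so both arrays were well past 2-fold. Of 13 measured ligands in the list of immunoglobulin superfamily, cadherin and matrix ligands, 2 were higher and 0 lower, with a median of 0.11. The other was Thbs1, the matrix glycoprotein thrombospondin, at 1.02 and 1.11 (2.10-fold). Without Vcam1, which was among the 10 chosen genes, 1 of 12 was higher (8.33%) and 0 lower. Of all genes, 4.20% were higher and 0.970% lower, so a count of 1 says little. Fn1, fibronectin, another ligand of Itga4 with Itgb1, gave 0.83 and 1.42 and missed 2-fold on array 1. Madcam1, the ligand of Itga4 with Itgb7, stood at 0.03 and -0.13, and Icam2, a ligand of Itgal, at 0.10 and -0.47.

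Selplg was a little above 0. It gave 0.38 and 0.49, a mean of 0.44 ± 0.06 or 1.35-fold, and was not called. None of the 8 measured selectin and selectin ligand genes was called in either direction (median 0.37), and 6 of them were above 0 on both arrays. The furthest from 0 with the same sign on both were Cd24a, a glycosylated ligand of P-selectin, at 0.63 ± 0.13, and Lamp1 at 0.53 ± 0.16. The enzymes that finish selectin ligands held no called gene either (10 measured, median 0.24). As only 4.20% of all genes were called higher and 0.970% lower, the lack of calls in these short lists says little. Tpst2, which sulfates tyrosines such as those of PSGL-1, gave 0.79 and 0.77, a mean of 0.78 ± 0.01. Chst2, a carbohydrate sulfotransferase, gave 1.28 and 0.21.

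The list of genes linked to integrin activation, the switch from weak to strong binding, had 19 of 39 genes measured. Tln1, Tln2, Fermt1, Fermt2, Fermt3, Rap1a and Rap1b of that list were not measured. Of the 19, 3 were called, all higher (15.8%, beside 4.20% of all genes), 16 were not, and the median was 0.26. The list was chosen with earlier results of these data known, so its share was not tested against that background. Dok2, an adaptor that dampens receptor signalling, was 5.50-fold higher (2.46 ± 0.07). Cd82, a tetraspanin that binds integrins, was 2.95-fold higher (1.56 ± 0.16), and Cd47, an integrin-associated protein and thrombospondin receptor, 2.36-fold (1.24 ± 0.19). Of the linkers that tie integrins to actin and carry signals inward, 0 of 29 were called in either direction (median 0.12). The furthest from 0 were Arpc1b, a subunit of the Arp actin-nucleating complex, at 0.93 and 1.22, and the GTPase Cdc42 at 0.39 and 0.58. In the wider list of adhesion and homing genes, 1 of 26 was higher and 1 lower, with a median of -0.07. Each is 3.85%, beside 4.20% of all genes higher and 0.970% lower. So few calls say little, as does 0 of 29 for the linkers. The chemokine receptor Ccr2, which draws monocytes and activated T cells to inflamed tissue, was 10.7-fold higher (3.42 ± 0.08). Ccr7, the lymph node homing receptor that triggers integrin activation on naive T cells, was 3.64-fold lower (-1.86 ± 0.16).

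Together the 7 lists held 126 measured genes, of which 9 were higher and 1 lower. Apart from the 10 genes, 5 of 116 (4.31%) were higher and 1 (0.862%) was lower, with a median of 0.12; these shares are near the 4.20% and 0.970% of all genes. Of the 126, 3 (Cd36, Glycam1 and Vtn) passed 2-fold upward on one array and downward on the other, as did 1.73% of all genes. They are named after their values were seen, and none of the 10 genes was among them.

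**Figure D3:**
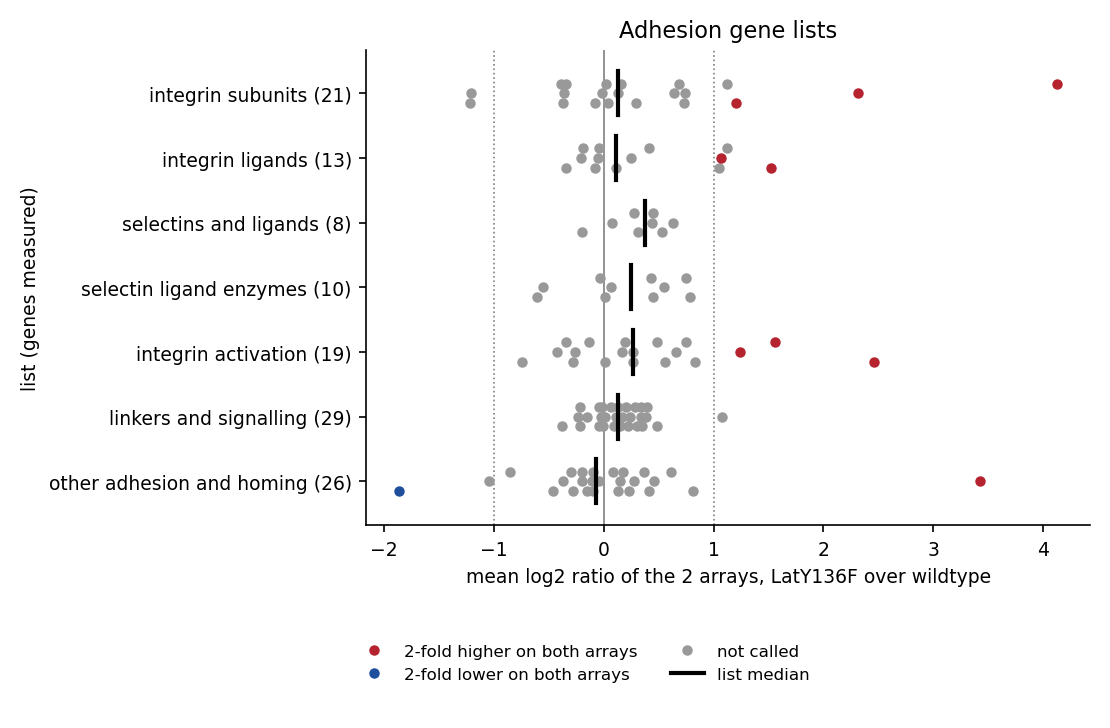
Mean log2 ratio of each measured gene in the 7 adhesion lists, with list medians as black bars and genes at least 2-fold apart on both arrays in red (higher) or blue (lower); dotted lines mark 2-fold. Calls fall in 4 of the 7 lists, and medians run from -0.07 to 0.37.

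Markers of other cell types moved beside these genes. The marker counts here and in the next paragraph stand beside 4.20% of all genes higher and 0.970% lower. A count of 1 in a short list says little. Itgb2l and Itgam are also made by neutrophils, and of 9 measured neutrophil markers 4 were higher and 0 lower, with a median of 1.34. Il1r2, the decoy interleukin-1 receptor, stood at 3.62 ± 0.50, Lcn2, a granule protein, at 3.14 ± 0.22, the granule protease Ctsg at 2.52 ± 0.19 and the granule protein Ngp at 2.50 ± 0.16. Vcam1, Itgam and Itgax are also made by macrophages or monocytes, and of 18 measured markers of these cells 9 were higher and 0 lower, with a median of 1.20. These were led by Ccr2, the mannose receptor Mrc1 (6.63-fold), the complement gene C1qc (5.57-fold) and Lyz1 (4.84-fold). Of the 18 means, 14 lay above 0 and 4 below: Ctss at -0.13, Marco at -0.34, Msr1 at -0.45 and Ms4a7 at -0.61. Itgam itself stood at 0.29 and was not called. The part of these cells in the ratios was not tested. In RNA of a cell population, fewer cells of a type and less RNA per cell cannot be told apart.

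B cell markers lay the other way: 9 of 17 measured were lower and 0 higher, with a median of -1.14, led by Cd79b (4.89-fold lower), Ighm (3.76-fold), Cr2 (3.38-fold) and Cd72 (3.33-fold). They stand beside the negative ratios of Itga6 and Itgav, and their part in these was not tested. Of 2 measured CD8 T cell markers 1, Cd8b1, was lower (4.67-fold). Of 10 natural killer cell markers 1, Klrd1, was lower (3.37-fold) and 0 were higher, with a median of -0.29. Of 5 erythroid markers, Epor (5.35-fold) and Hba-a1 (2.10-fold) were higher (median 0.84). Of 10 dendritic cell markers Cst3 was 2.28-fold higher and Ly6d 2.49-fold lower (median -0.002). Of the eosinophil, basophil and mast cell markers 0 of 6 were called (median 0.87), with Ms4a2 at 1.20 ± 0.23 and Fcer1a at 1.16 ± 0.83. Of the stromal and endothelial markers 0 of 10 were called, 5 means were above 0 and 5 below, and the median was 0.05. The furthest from 0 were Fn1 at 1.12 ± 0.30 and Tek, whose signs differed, at 1.87 and -0.29. T cell markers had a median of -0.04 with 0 of 12 called. Cd3e stood at -0.01, Cd4 at -0.17 and Lat at -0.17, and the furthest from 0 were Cd247 at -0.88 ± 0.46 and Cd5 at 0.81 ± 0.11. Ratios do not show how much of a marker either RNA held, so they do not check the labelled cell type, and the level of Lat does not check a substitution.

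**Figure D4:**
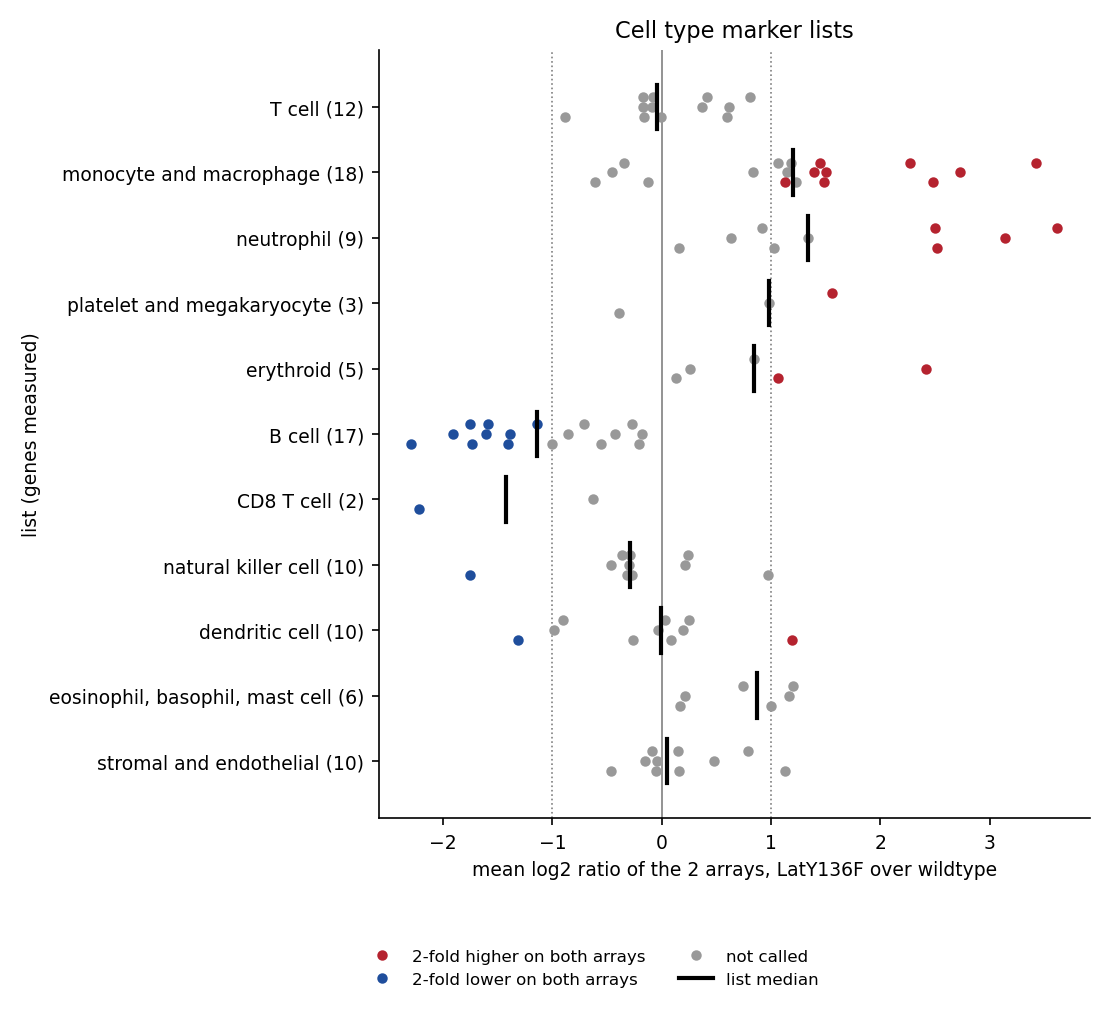
Mean log2 ratio of each measured gene in the 11 cell type marker lists, drawn like the adhesion lists: black bars are list medians, and red or blue points are at least 2-fold higher or lower on both arrays. Neutrophil and monocyte medians lie at 1.34 and 1.20, the T cell median at -0.04 and the B cell median at -1.14.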

How the data were processed

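The table the authors deposited holds 8014 probes with a log ratio for each array, read here as log10. The sources used here give neither its base and direction nor the background correction, normalization or filters behind it. The deposited log10 columns had medians of -0.0033 (array 1) and 0.0070 (array 2). Scanner signals were not analysed here, so brightness and detection are unknown, and the number of arrays limits the precision. Values were multiplied by 3.32 to give log2, the sign of array 2 was reversed, and the median of each array was subtracted. Of the probes, 4654 had 1 gene symbol in the platform annotation, 73 several and 3287 none; only the first were used, and probes of a gene were averaged, giving 4331 genes (Python 3.11.15, pandas 2.3.3). None of the 14 probes stood at exactly 0.

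The 10 genes, the 7 adhesion lists and the 11 marker lists were chosen with earlier results of these data known. Named were the 10 genes, other integrin subunits, called genes of each adhesion list (or the 2 furthest from 0 with 1 sign on both arrays), up to 4 called genes of each marker list (or the 2 furthest from 0), and Cd3e, Cd4 and Lat. Madcam1, Icam2, Clec1b, Ctss, Marco, Msr1 and Ms4a7 are list members named outside this rule, after their values were seen. Gata3 serves only as the basis for the direction. The alternatives were other centring, scaling, probe choice, thresholds, base and direction, and each array alone.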

Additional observations from a re-analysis of the deposited data

How the results depend on the processing

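Itgb2l, Itgb1, Vcam1 and Itga2b were called in all 24 combinations with the alternatives that leave the base, direction and threshold as they were. Many of these outcomes were fixed in advance and add no support. A gene past 2-fold on both arrays passes on each array alone, and no probe of these genes stood at exactly 0. The choice of probe could change only Itgb1, as the others have a single probe. With the ratio turned, Itgb2l, Itgb1, Vcam1 and Itga2b stood at -4.13, -2.32, -1.52 and -1.20. The counts over the 10 genes (4 higher, 0 lower) then became 0 and 4, those over integrin subunits (3 and 0) 0 and 3, and those over the 7 lists (9 and 1) 1 and 9. Read as log2, 1 of the 10 genes was higher (Itgb2l), 1 integrin subunit, and 2 genes of the lists, with 0 lower. At 1.5-fold, 5 of the 10 genes were higher (Itgb7 joined) and 1 lower (Itga6). At that threshold 5 integrin subunits were higher and 2 lower, and the lists held 19 and 6. At 3-fold, 2 of the 10 genes (Itgb2l and Itgb1) and 4 of the lists were higher, and 1 of the lists was lower. By the mean of the arrays, Itga6 became the 1 lower gene, with 2 lower integrin subunits (Itga6 and Itgav) and 4 lower genes in the lists. The higher counts by the mean were 4 of the 10 genes, 4 integrin subunits and 13 genes of the lists. On single arrays, where a call needs 1 array, the 10 genes gave 4 to 5 higher (Itgal joined on array 1) and 0 to 1 lower (Itga6 on array 2). Integrin subunits gave 3 to 6 higher and 0 to 2 lower, and the lists 11 to 19 higher and 1 to 11 lower. These counts have their own backgrounds: of all genes, 7.83% were higher and 2.93% lower at 1.5-fold, 1.59% and 0.439% at 3-fold, 5.98% and 1.36% by the mean, 13 and 0 of 4331 genes as log2, and 7.87% to 9.42% and 3.35% to 3.49% on single arrays. Each ratio already sets LatY136F RNA against wildtype RNA on the same array. The arrays are a single dye-reversal pair with no known biological replicate, so the spread between mice is unknown.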
